A study of Sus scrofa with 9 samples.

Results

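The troponins and tropomyosins of the muscle thin filament were followed through 8 genes in the longissimus dorsi, a back muscle, of Bama minipigs. The genes were given by name: TNNT1, TNNC1, TNNI1 and TPM3 on the slow-fibre side, and TNNT3, TNNC2, TNNI2 and TPM1 on the fast-fibre side. Every array probe whose accession maps to one of them was taken, which gave 8 of 3196 named genes and 40 of 43603 probes, and all 40 passed the filter on dim probes. Per the labels, 6 animals received a high-fat high-sucrose diet (HFHSD) of 53% basal feed, 37% sucrose and 10% lard, and 3 animals received standard chow (CD). The design text gives 3 CD animals and the growth protocol 6, and 3 CD arrays were analysed here. Feeding ran for 23 months from an age of 6 months, and all animals were gonadally intact, fed a restricted ration and fasted overnight before dissection. Both sexes were used without a label on which animal was which. Each animal has 1 single-colour Agilent array.

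Tropomyosin lies along the actin filament and covers the sites that myosin binds. Troponin T anchors the troponin complex to tropomyosin, troponin I holds the filament in the off state, and troponin C binds calcium and releases that inhibition. Slow and fast fibres build the complex from separate genes, so the balance of these transcripts follows the mix of fibre types, which in pig longissimus is mostly fast. TNNC1 also serves the heart, while TPM1 and TPM3 both give rise to several muscle and non-muscle forms by alternative promoters and splicing.

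In the RefSeq gene table the troponin T and troponin I members lie in pairs with another troponin gene, while TNNC1 and TNNC2 had no such close neighbour. TNNI2 and TNNT3 are neighbours with 2 genes between them, TNNT1 lies next to TNNI3, which encodes cardiac troponin I, and TNNI1 is separated from TNNT2, which encodes cardiac troponin T, by 1 gene.

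A level below is the log2 processed signal of a probe minus the 75th percentile of its array. Levels of different probes are not set against each other, except to compare their brightness. Between 51.2% and 68.9% of probes were well above background on 8 arrays, against 36.8% on CD 1. The arrays came from 3 slides. HFHSD 5 and HFHSD 6 shared slide 1, which had a scan day of its own. CD 1 shared slide 2 with HFHSD 1, HFHSD 3 and HFHSD 4, and HFHSD 2 shared slide 3 with CD 2 and CD 3. No spot was saturated, and the brightest member signal reached 70.0% of the scanner's ceiling on HFHSD 6. The skeletal muscle markers ACTA1, CKM, DES, ENO3 and MYLPF were well above background on every array. In such whole-muscle RNA, fewer fibres of a type and less RNA per fibre cannot be told apart.

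The slow-fibre genes varied widely among the HFHSD animals, above and below the CD range. TNNI1, the slow inhibitory subunit, had levels of 5.78, 9.06, 6.90, 8.73, 7.19 and 7.32 in HFHSD 1 to HFHSD 6, against 7.63, 6.84 and 7.41 in the CD animals. HFHSD 2 and HFHSD 4 lay above all CD animals, HFHSD 1 lay below them, and the remaining 3 HFHSD animals fell inside the CD range. The means were 7.50 ± 1.22 (SD, n = 6) in HFHSD and 7.29 ± 0.41 (SD, n = 3) in CD. The highest HFHSD animal carried 9.73 times the signal of the lowest. The second TNNI1 probe, A_72_P668087, gave 11.8 times between the same 2 animals, and both probes moved together over the 9 arrays (Pearson's r = 0.97).

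TNNT1, the slow subunit that ties the complex to tropomyosin, had the same animals at its extremes. By its brightest probe it had 8.60, 10.27, 9.36, 10.36, 9.77 and 9.74 in HFHSD 1 to HFHSD 6, and 9.88, 9.35 and 9.91 in CD 1 to CD 3. HFHSD 4 and HFHSD 2 were again the highest and HFHSD 1 the lowest of all animals. The 4 TNNT1 probes moved together, with r between 0.94 and 0.99, but the size of the spread depended on the probe: the highest HFHSD animal was 3.38 times the lowest by the brightest probe and 8.57 times by the dimmest.

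TPM3, the slow-muscle tropomyosin, was read by 2 bright probes and 2 dim ones. The brightest had 5.51, 8.18, 6.31, 8.14, 6.81 and 6.52 in HFHSD 1 to HFHSD 6, and 7.06, 6.44 and 7.09 in the CD animals. Both bright probes followed each other (r = 0.97), with HFHSD 2 and HFHSD 4 on top. The dim probes, A_72_P302934 and A_72_P649261, also followed each other (r = 0.98) but followed neither bright probe (r between 0.04 and 0.19). A_72_P302934 lay between -1.07 and -0.60 in the HFHSD animals, against -2.01, -0.94 and -0.23 in CD 1 to CD 3, and neither dim probe was well above background on CD 1. The files carry 1 accession for all 4 probes and do not say which TPM3 form each one reads.

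TNNC1, the calcium-binding subunit of slow and cardiac muscle, has a single probe. Its levels were 8.26, 10.04, 8.81, 9.95, 9.72 and 9.65 in HFHSD 1 to HFHSD 6, and 8.87, 9.40 and 9.45 in CD 1 to CD 3. The top and bottom animals were those of the other slow genes, while HFHSD 5, HFHSD 6 and CD 1 changed places: the first 2 lay above all CD animals for TNNC1, and CD 1 was the lowest of the CD group. Over the 9 slow-fibre probes other than the dim TPM3 pair, HFHSD 2 and HFHSD 4 were the 2 highest arrays for 9 probes, and HFHSD 1 was the lowest for 9. The share of probes above background was 61.5% on HFHSD 2, 55.5% on HFHSD 4 and 54.6% on HFHSD 1, inside the range of the other HFHSD arrays. The summed adipocyte marker signal was 369 times the 75th percentile on HFHSD 1, 270 times on HFHSD 4 and 124 times on HFHSD 2. On HFHSD 4 that sum was mostly LIPE (level 7.85). The other adipocyte markers, such as FABP4 (5.23), ADIPOQ (-0.94) and CIDEA (-0.27), had their lowest HFHSD value on that array. The part of fat cells in the slow-fibre values was not tested.

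**Figure D1:**
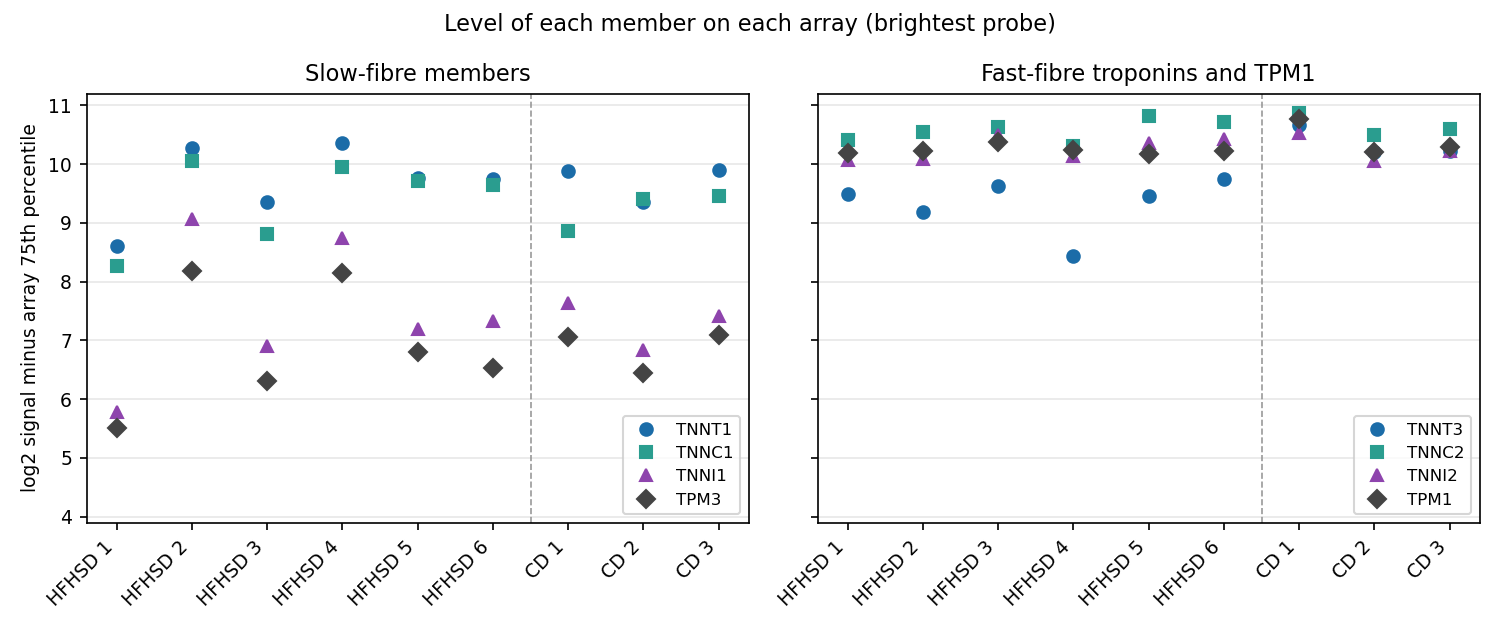
Level (log2 signal minus the array's 75th percentile) of the brightest probe of each gene on the 6 HFHSD and 3 CD arrays, 1 point per animal, with slow-fibre members on the left and fast-fibre members on the right. The slow genes spread widely among HFHSD animals, with TNNI1 between 5.78 and 9.06, whereas TNNC2 stays between 10.30 and 10.82, and TNNT3 is lower in every HFHSD animal than in every CD animal.

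The probe signals of the fast-fibre troponins were nearly level across animals, with TNNT3 as the exception. TNNC2, the calcium-binding subunit of fast fibres, had 10.41, 10.55, 10.63, 10.30, 10.82 and 10.72 in HFHSD 1 to HFHSD 6, and 10.86, 10.50 and 10.59 in the CD animals. The diets overlapped, and the highest HFHSD animal was 1.43 times the lowest. TNNI2, the fast inhibitory subunit, ranged from 10.08 to 10.50 with a median of 10.24 in HFHSD, against 10.53, 10.06 and 10.23 in CD 1 to CD 3, a spread of 1.34 times among HFHSD animals. For both genes CD 1 was the highest of all arrays.

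Set against the whole array, the SD over the 9 animals placed the probes of TNNC2 and TNNI2 between the 1.58th and the 4.27th percentile of all 27921 tested probes. The 9 slow-fibre probes stood between the 60.0th and the 93.2nd percentile. The other fast-side probes reached into that range, with TNNT3 between the 19.6th and the 72.1st percentile and TPM1 between the 0.183rd and the 90.6th. These are descriptions of the spread, without a test. The TNNC2 and TNNI2 probes were also brighter, with mean levels from 9.93 to 10.6, against 5.82 to 9.69 for the 9 slow-fibre probes. Among the 4 TNNT1 probes the SD was 0.535 for the brightest (mean level 9.69) and 0.998 for the dimmest (7.30). The bright probe of MYH7, the slow myosin heavy chain, had an SD of 0.502 over the 9 animals. Its mean level was 9.96 in HFHSD and 10.18 in CD. Whether the spread narrows at the bright end of the scale was not tested. The SD within HFHSD ran from 0.65 to 1.32 over the slow probes, against 0.31 to 0.53 within CD. With 6 and 3 animals that difference in spread was not tested either.

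TNNT3, the fast troponin T, was the member with the largest diet difference, and it rested on 1 of 4 probes. By its brightest probe, A_72_P015556, it had 9.49, 9.19, 9.62, 8.44, 9.46 and 9.75 in HFHSD 1 to HFHSD 6, against 10.66, 10.21 and 10.23 in CD 1 to CD 3. The lowest CD animal lay above the highest HFHSD animal, and HFHSD 4 was the lowest of all. The log2 difference was -1.04 (SE 0.29, 95% confidence interval -1.69 to -0.39), which is 2.06 times lower in HFHSD. It did not pass after adjustment over all probes (limma, adjusted p = 0.108).

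The 3 other TNNT3 probes differed by -0.18, -0.20 and -0.18, with adjusted p between 0.748 and 0.888 in the same limma fit, and their diets overlapped. A_72_P535015, the next in brightness, had 8.94, 8.82, 9.60, 8.95, 9.10 and 9.02 in HFHSD 1 to HFHSD 6, and 9.65, 8.99 and 9.11 in the CD animals. Over the 9 arrays it correlated at r = 0.53 with A_72_P015556 and at r = 0.91 with A_72_P574589. TNNT3 is spliced into many forms in muscle, but the 4 probes share 1 accession, and the forms they read are not given in the sources used here. Without CD 1 the brightest probe differed by -0.89 (limma, adjusted p = 0.296). Without HFHSD 4 it differed by -0.86 (limma, adjusted p = 0.0912), and with normexp background correction and percentile scaling by -0.59 (adjusted p = 0.609), where the 3 other probes turned higher.

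Marker genes of other cell types were read on the same arrays, where 26 of all 2613 tested genes were called and 1109 were higher in HFHSD. Of the adipocyte markers, 7 of 7 were higher in HFHSD and 1 was called, CIDEA (1.49, limma adjusted p = 0.0378), while ADIPOQ differed by 2.47 (limma adjusted p = 0.113). The summed signal of the 7 markers, most of it from LIPE and FABP4, was 111 to 369 times the 75th percentile in HFHSD, against 85.8 to 115 in CD. PLIN1, which coats fat droplets, was above background in 5 of 6 HFHSD animals and 0 of 3 CD animals. It thus passed the filter on dim probes through HFHSD alone, so its direction is no separate evidence among the 7. Its diets overlapped, with -3.92 on CD 1 against -5.87 on HFHSD 4. All 4 smooth muscle markers measured were lower, with 0 past the test in limma. Their sum was 533 to 806 in HFHSD against 805 to 1233 in CD, and it was mostly ACTA2. ACTA2 differed by -0.55, CNN1 by -0.69, SMTN by -0.80 and MYLK by -0.07. MYLK was above background in 2 of 3 CD animals. The pattern of ACTA2 was like that of ACTC1, a cardiac muscle marker that differed by -0.58. Both were lowest on HFHSD 1 and highest on CD 1, and what the ACTA2 probe reads was not tested. All 4 macrophage markers measured were lower too, with 0 called by limma, and CD163 differed by -1.13 (limma adjusted p = 0.346) and C1QB by -0.29. The part of these cell types in the TNNT3 or tropomyosin values was not tested.

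**Figure D2:**
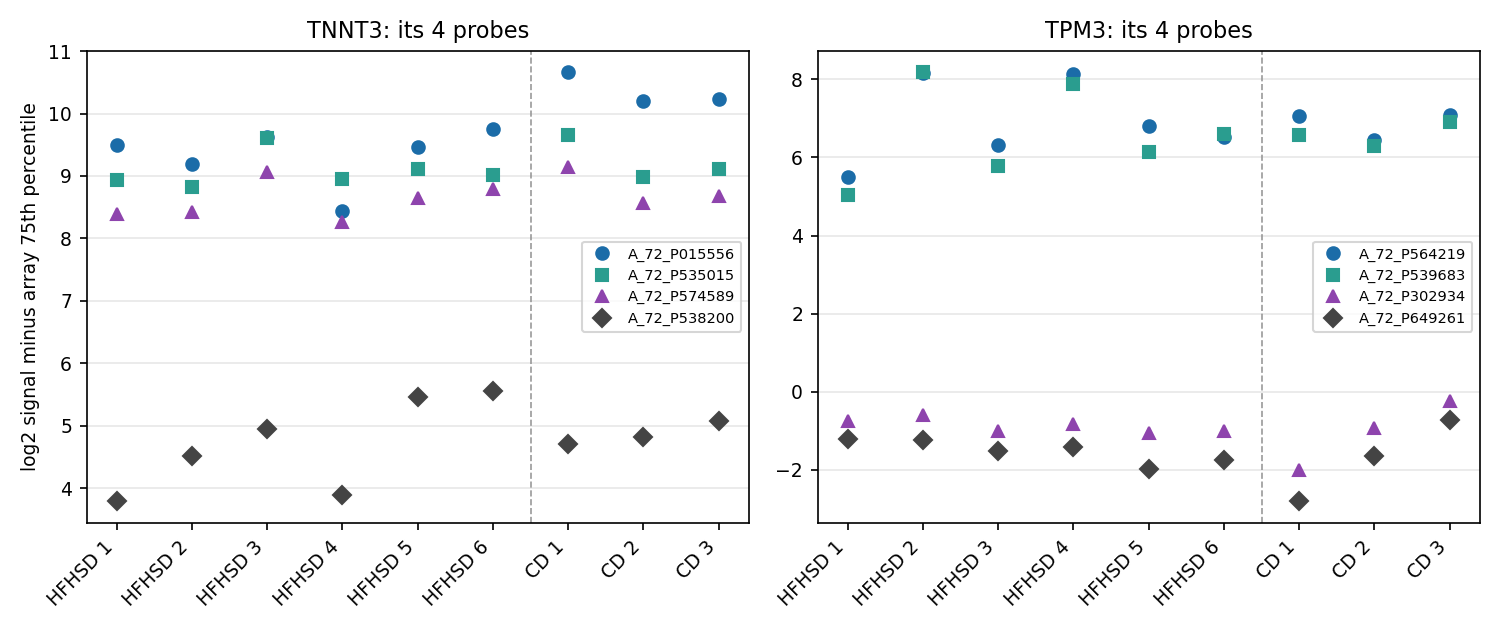
Levels (log2 signal minus the array's 75th percentile) of the 4 TNNT3 probes on the left and the 4 TPM3 probes on the right, 1 point per animal, HFHSD arrays before CD arrays. The diets separate for the TNNT3 probe A_72_P015556 and overlap for its 3 other probes; the 2 bright TPM3 probes peak in HFHSD 2 and HFHSD 4, and the 2 dim ones do not.

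TPM1, the tropomyosin of fast and cardiac muscle with many non-muscle forms, was read by 21 probes that disagreed in part. The brightest, A_72_P741907, had 10.18, 10.22, 10.37, 10.23, 10.17 and 10.22 in HFHSD 1 to HFHSD 6, against 10.76, 10.21 and 10.30 in the CD animals. CD 1 stood above the other 8 arrays, which lay between 10.17 and 10.37, and without CD 1 the difference shrank to -0.02. It was -0.19 over all arrays (SE 0.18, limma adjusted p = 0.674). Of the 21 probes 18 were lower in HFHSD and 3 higher, with a median difference of -0.18, while the median over all tested probes was -0.02. Without CD 1, 19 of the 21 were lower, so the direction over the probes did not rest on that array. With normexp and quantile normalisation 16 of the 21 were lower, and with normexp and percentile scaling 0.

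Agreement between TPM1 probes ran from r = -0.82 to r = 0.99 over the 210 pairs, with a median of 0.49. The steadiest, A_72_P077561, had an SD of 0.04 (n = 6) in HFHSD. The least steady, A_72_P726998, had 6.73, 7.80, 7.49, 7.15, 8.74 and 8.63 in HFHSD 1 to HFHSD 6, and 5.48, 8.01 and 7.54 in CD 1 to CD 3. That probe was lowest on CD 1, the array where 11 of the 21 probes were highest.

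Slide 1 stood apart for some of these probes, though for no larger a share than over all tested probes. On HFHSD 5 and HFHSD 6 together, 2 TPM1 probes lay below all other arrays and 3 above them, which is 23.8% of the 21, against 27.4% of all tested probes. A_72_P741196 was one of the 2 below, with 9.59 and 9.48 on those arrays and 9.87 or more on the others. Slide 1 held no CD array, so on it the slide and the diet cannot be told apart.

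Comparing the diets across the members, 0 of 40 probes were called by limma at an adjusted p under 0.05, where 1.23% of the 27921 tested probes were called, 0.695% higher and 0.537% lower in HFHSD. At an unadjusted p under 0.05 there was 1 of 40, against 16.5% of all probes, and the diets did not overlap for 1 of 40, against 10.9% of all probes. Both counts of 1 are the TNNT3 probe. Of the 40 probe differences 13 were positive and 27 negative, with a median of -0.10. That is 32.5% positive, against 47.9% of all tested probes, and 18 of the 27 negative ones were probes of the single gene TPM1.

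The intervals show how much the test could have missed. For the fast genes TNNC2 and TNNI2 the brightest probes differed by -0.08 (95% confidence interval -0.49 to 0.33) and -0.01 (-0.43 to 0.41). For the slow genes they were much wider: TNNI1 differed by 0.21 (-1.23 to 1.65), TPM3 by 0.05 (-1.22 to 1.31), TNNC1 by 0.16 (-0.73 to 1.06) and TNNT1 by -0.03 (-0.86 to 0.80). A shift of a doubling of the probe signal in either direction thus lies inside the intervals of TNNI1 and TPM3, and outside those of TNNC2 and TNNI2.

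**Figure D3:**
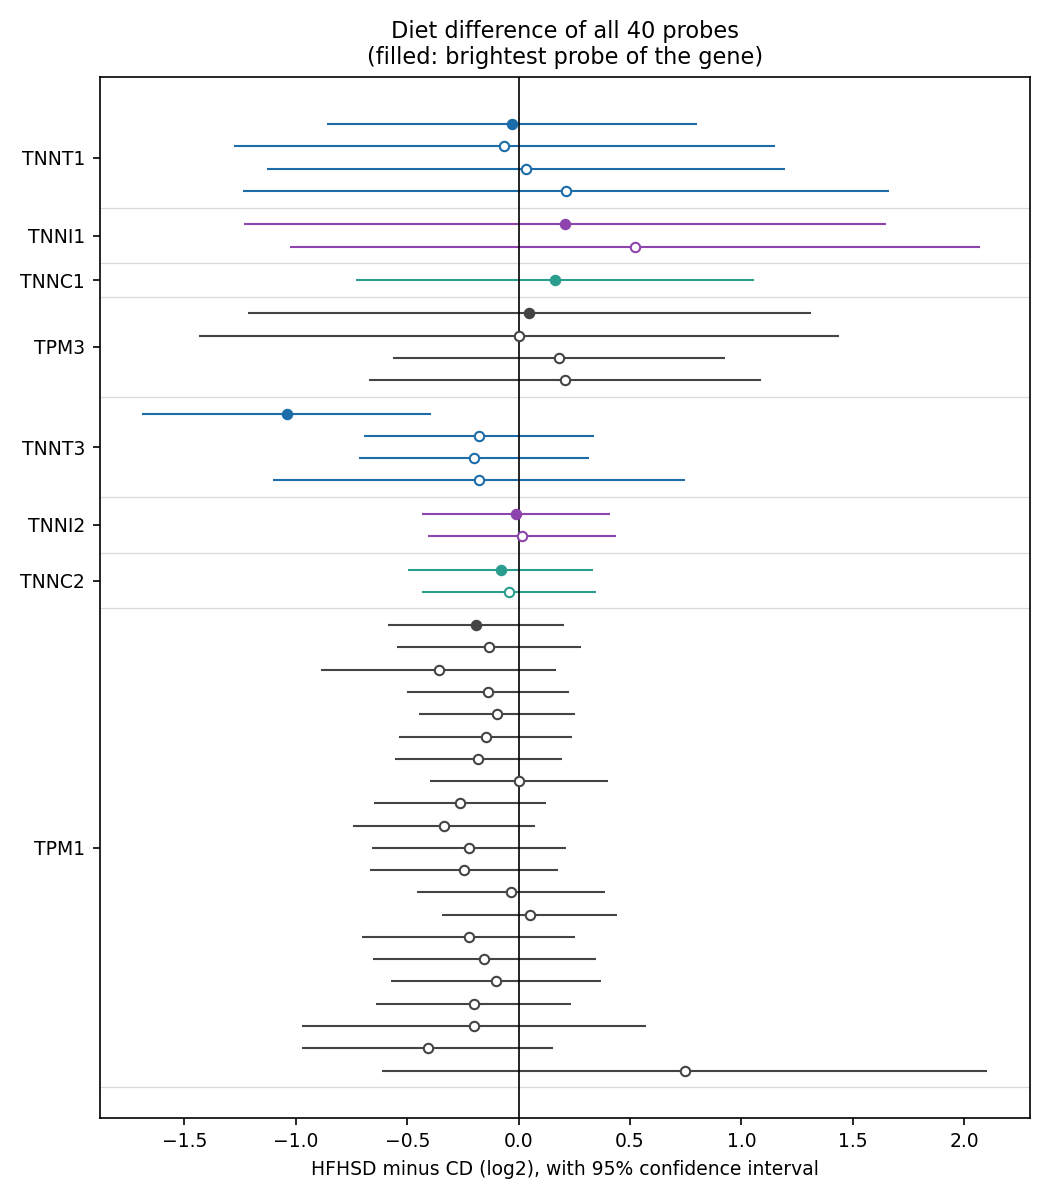
Difference HFHSD minus CD (log2) of all 40 probes with the 95% confidence interval of the limma fit, grouped by gene, the brightest probe of each gene filled. The interval of the brightest TNNT3 probe (-1.69 to -0.39) does not reach 0, and the brightest slow probes have wider intervals, such as -1.23 to 1.65 for TNNI1, than the brightest probes of TNNC2 (-0.49 to 0.33) and TNNI2 (-0.43 to 0.41).

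On the slides that held both diets, the differences of 3 of the 4 slow genes took opposite signs. On slide 2 the TNNI1 difference was -0.49, that of TPM3 -0.41 and that of TNNT1 -0.45, while on slide 3 they were 1.94, 1.41 and 0.65. TNNC1 was positive on both, at 0.14 on slide 2 and 0.62 on slide 3. HFHSD 2 is the only HFHSD animal of slide 3, and CD 1 the only CD animal of slide 2, so each value rests on that animal. TNNT3 was lower on both, by -1.48 and -1.03 in its brightest probe.

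The ratio of a slow gene to its fast partner within 1 array does not depend on the scaling of that array. Each log2 ratio was centred on its CD mean. TNNI1 over TNNI2 stood at -1.32, 1.96, -0.61, 1.58, -0.18 and -0.12 in HFHSD 1 to HFHSD 6, against 0.08, -0.24 and 0.16 in the CD animals. The ratio spanned 9.67 times among HFHSD animals and 1.32 times among CD animals. TNNC1 over TNNC2 spanned 3.46 times among HFHSD and 1.86 times among CD animals, and TPM3 over TPM1 6.19 and 1.48 times. A span over 6 animals tends to be wider than one over 3, and these differences in span were not tested.

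TNNT1 over TNNT3, with the brightest probes, stood at -0.24, 1.74, 0.39, 2.57, 0.96 and 0.65 in HFHSD 1 to HFHSD 6, against -0.12, -0.21 and 0.33 in CD 1 to CD 3. It was thus above the CD range in 5 of 6 HFHSD animals. With the TNNT3 probe A_72_P535015 in its place the values were -0.80, 0.99, -0.70, 0.94, 0.20 and 0.26, of which 2 were above the CD range. For each pair the diets overlapped.

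**Figure D4:**
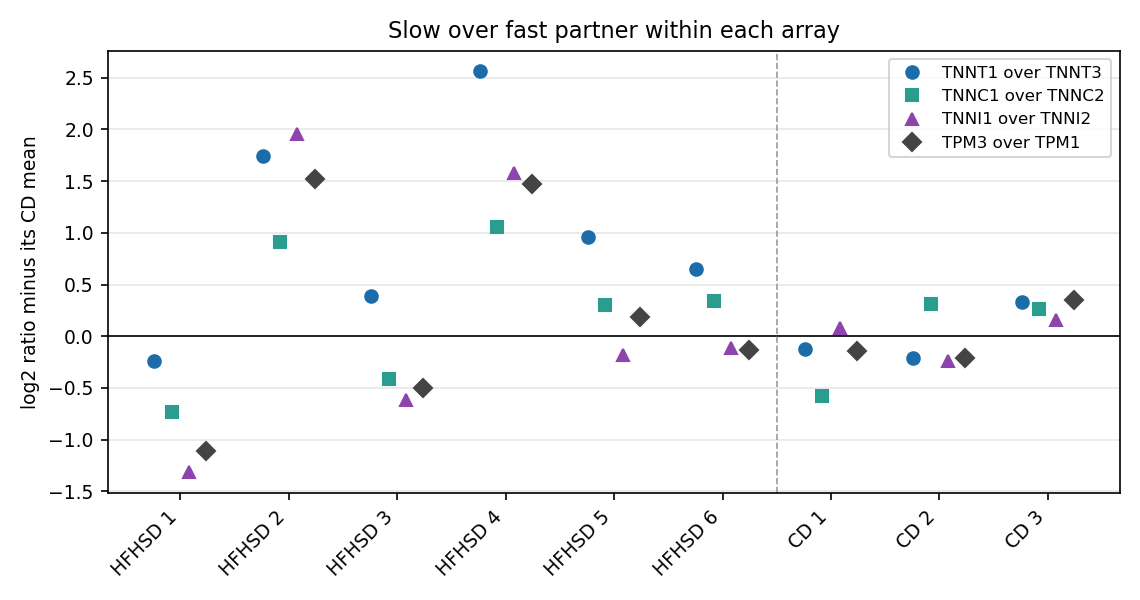
Log2 ratio of each slow gene to its fast partner within an array (brightest probes), minus the mean of that ratio in CD, for the 6 HFHSD and 3 CD animals. HFHSD 2 and HFHSD 4 are high and HFHSD 1 low for all 4 pairs, with TNNI1 over TNNI2 between -1.32 and 1.96, and the CD animals stay between -0.58 and 0.35.

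Across the 9 animals the slow genes moved as a block. Pearson's r among the brightest probes of TNNT1, TNNI1, TPM3 and TNNC1 lay between 0.80 and 0.98, and all 6 pairs passed an exact two-sided permutation test of r after Benjamini-Hochberg adjustment over the 28 pairs of members (adjusted p between 0.000540 and 0.0464). TNNI1 and TPM3 were the closest (r = 0.98, exact permutation p = 7.7e-05; Spearman's rho = 0.95, exact permutation p = 0.000353). TNNT1 followed TPM3 with r = 0.95 and rho = 0.97 (exact permutation p = 1.9e-05 and 0.000165).

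Leaving out the 2 arrays farthest from the median kept these relations: r was 0.97 for TNNI1 with TPM3 and 0.92 for TNNT1 with TPM3, over 7 arrays. Without HFHSD 2 and HFHSD 4, the high animals, r was 0.95 and 0.97. TNNC1 was tied less closely: its r with TNNT1, TNNI1 and TPM3 was 0.84, 0.80 and 0.80, which became 0.58, 0.59 and 0.56 without the 2 farthest arrays. Its rho values were 0.77, 0.73 and 0.82 (exact permutation p = 0.0214, 0.0311 and 0.0108), none of which passed after adjustment. Within the 6 HFHSD animals alone r among the slow genes was between 0.88 and 0.99. A slide held at most 4 of the arrays, too few for a value within each.

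As a set, the fast genes formed no such block. Among TNNT3, TNNC2, TNNI2 and TPM1 r ran from 0.40 to 0.79, and 0 of 6 pairs passed after adjustment (exact permutation test, lowest adjusted p = 0.0511). TNNC2 and TNNI2 were the closest, with r = 0.79, rho = 0.82 and 0.75 without the 2 farthest arrays. That pair was about as close as the slow pair TNNC1 and TPM3 (r = 0.80, rho = 0.82). Without the 2 farthest arrays, of which CD 1 was 1 in each case, r was 0.26 for TNNT3 with TPM1, 0.02 for TNNC2 with TPM1 and -0.11 for TNNT3 with TNNC2. Between slow and fast genes r lay between -0.42 and 0.15, and 0 of 16 pairs passed (exact permutation test, lowest adjusted p = 0.533). These low values rested on HFHSD 2 and HFHSD 4: without them r between slow and fast genes lay between -0.28 and 0.81 over 7 arrays, with 0.81 for TNNC2 with TNNI1, 0.80 for TNNC2 with TNNT1 and 0.73 for TNNC2 with TPM3. These values share the array and its scaling.

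**Figure D5:**
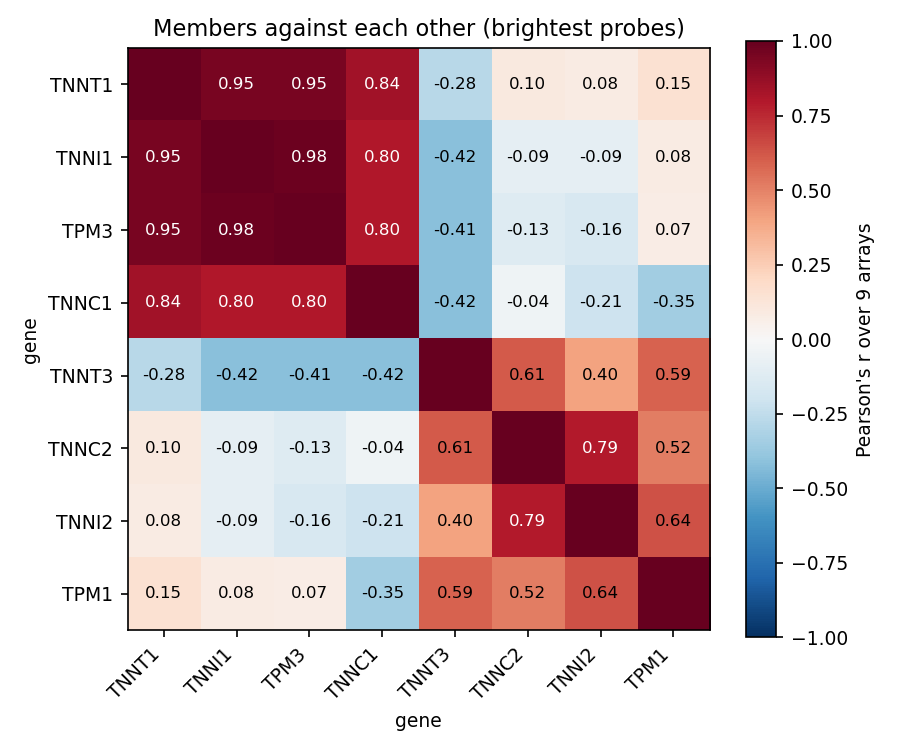
Pearson's r over the 9 animals between the brightest probes of the 8 genes, red for positive and blue for negative. The 4 slow genes form a block with r between 0.80 and 0.98, the fast genes reach at most 0.79 among themselves, and slow against fast stays between -0.42 and 0.15.

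The genes whose pattern lay closest to each member were taken from 2605 other genes, by the highest r over the 9 arrays and as a description. For TNNI1 they were ATP2A2, the calcium pump of slow fibres and heart (r = 0.98), PLN, which restrains that pump (0.97), and HSDL2 (0.96). TPM3 had the same 3, in the order ATP2A2 (0.99), PLN (0.97) and HSDL2 (0.95). For TNNT1 they were HSDL2 (0.94), MYH7, the slow myosin heavy chain (0.94), and ATP2A2 (0.93). TNNC1 was closest to CD1D (0.97), MYBPC1, the slow myosin-binding protein C (0.92), and FSCN1 (0.90).

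For the fast side, TNNI2 was closest to MYOZ3, a Z-disc protein of fast fibres (0.93), PSMC5 (0.89) and NPG4 (0.88). TPM1 was closest to FUNDC2 (0.97), CKM, the muscle creatine kinase (0.95), and DES, which encodes desmin (0.93). TNNC2 was closest to PDZK1IP1 (0.91), TSPAN1 (0.91) and NGB (0.89). Among the genes closest to the brightest TNNT3 probe were IFNGR2, a subunit of the interferon gamma receptor (0.94), and GPX2, a glutathione peroxidase (0.92). Like the genes closest to TNNC2, neither is a gene of the contractile apparatus. Within the list of other fast fibre genes described below, the highest r of that TNNT3 probe was 0.88.

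TNNI3, the cardiac troponin I gene next to TNNT1, was high in the same animals as the slow genes. It had 1.59, 3.48, 1.39, 4.06, 2.18 and 2.09 in HFHSD 1 to HFHSD 6, against 1.33, 1.55 and 2.69 in CD 1 to CD 3, and was well above background on all 9 arrays. Its r was 0.84 with TPM3, 0.80 with TNNI1 and 0.74 with TNNT1, given as a description over 9 arrays. Of the cardiac marker list only ACTC1 and TNNI3 had a tested probe.

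The other genes of the contractile apparatus were described from lists. Of 20 other thin filament genes 11 were measured, and 0 were called by limma at an adjusted p under 0.05, with 2 higher, 9 lower and a median difference of -0.19, beside -0.08 over all 2613 tested genes. TPM2, the beta tropomyosin, had 5.12, 5.65, 5.34, 5.35, 5.27 and 5.53 in HFHSD 1 to HFHSD 6, against 6.05, 6.29 and 5.90 in CD 1 to CD 3. The diets did not overlap, and the difference was -0.70 (SE 0.18, limma adjusted p = 0.0934). It passed with normexp and quantile normalisation (-0.65, limma adjusted p = 0.0249) and with probes above background on all arrays (limma adjusted p = 0.0470), but in no other fit. With normexp and percentile scaling it was -0.29 (limma adjusted p = 0.658). A fixed block for slide gave -0.62 (limma adjusted p = 0.157), and without a filter on dim probes its adjusted p was 0.243. XIRP1, an actin-binding protein of muscle, differed by -1.63 (SE 0.49, limma adjusted p = 0.131), also without overlap.

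Of 11 other slow fibre genes 7 were measured, 3 higher and 4 lower, with 0 called by limma and a median of -0.02. Their r with TPM3 ranged from 0.61 to 0.99, with a median of 0.88, against -0.49 to 0.42 for the 10 measured genes of the other fast fibre list. MYH7 differed by -0.22 (SE 0.34, limma adjusted p = 0.821), and by -0.0044 without HFHSD 1 and -0.04 without CD 1. CSRP3, a muscle LIM protein, had 0.43, 8.12, 5.09, 7.40, 3.23 and 6.03 in HFHSD 1 to HFHSD 6, against 7.69, 7.00 and 7.47 in the CD animals. Its lowest value fell in HFHSD 1 and its highest in HFHSD 2, and its difference was -2.34 (SE 1.45, limma adjusted p = 0.480). Without HFHSD 1 that difference was -1.41, and with slide as a fixed block -1.37.

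Of 12 other fast fibre genes 10 were measured, 4 higher and 6 lower, with 0 called by limma and a median of -0.04. MYH2, a fast oxidative myosin, had a difference of -0.996 (SE 0.32, limma adjusted p = 0.158) without overlap, and MYH4, the myosin of the fastest fibres, by 0.61 (SE 0.31, limma adjusted p = 0.370). Of 19 thick filament, titin and Z-disc genes 7 were measured, 5 higher and 2 lower, with 0 called by limma. TCAP, which caps titin at the Z-disc, differed by 0.66 and PDLIM3 by 0.38. Of 13 genes of troponin phosphorylation and calcium signalling 6 were measured, 2 higher and 4 lower, with 0 called by limma. PRKAA2, a catalytic subunit of the AMP-activated kinase, differed by 0.42 and PPP3CB, a calcineurin subunit, by 0.29.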

How the data were processed

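Each deposited scanner file gives linear spot intensity values for 1 array, read by the authors with Agilent Feature Extraction 10.7.3.1, per the file headers; the main measure is its processed signal. The value table of the series repeats these intensities, with 0 spots differing on every array. Diet labels set the groups, and replicate numbers follow accession order and only name animals. p-values measure the spread between animals.

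Control spots, and 22 probes with outlier flags, were left out, and spots of 1 probe were averaged. From the deposited intensity, log2 was taken and each array's 75th percentile subtracted. Probes well above background on at least 3 arrays were tested. Accessions without versions named 6891 probes through the RefSeq table of Sscrofa11.1, used for names and gene order only. All 8 members are given. The brightest tested probe stands for a gene, each list of muscle genes names its 2 genes of smallest p, and each member its 3 closest genes by r over 9 arrays, of which 1 is not reported here; genes outside this rule were chosen after their values were seen.

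limma 3.58.1 (R 4.3.3, lmFit and eBayes, two-sided, no covariates) tested HFHSD against CD, adjusted by Benjamini-Hochberg over all 27921 tested probes at 0.05. The fit was tested on simulated data. Members and lists were chosen with earlier results of these data known. The number of arrays limits the precision. Mean signal was not used here, so normexp (offset 50) was run on the median signal, an alternative chosen after seeing the data.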

Additional observations from a re-analysis of the deposited data

Results flagged for a closer look

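For each of the 40 member probes, the highest and lowest HFHSD animal were set against the other 5 by Dixon's test. It marked 5 probes. Chance marks about 1 in 20, but 21 of the 40 probes read TPM1 on the same arrays. The probes are thus not independent, and whether 5 is more than chance was not tested. HFHSD 3 was far above the others for 4 of the marked probes. The TNNT3 probe A_72_P535015 stood at 9.60 on HFHSD 3, with the next animal at 9.10. For TPM1, A_72_P741907 stood at 10.37 (next 10.23), A_72_P718483 at 9.78 (next 9.54) and A_72_P727268 at 9.64 (next 9.24) on that array. The TPM1 probe A_72_P746394 was low on HFHSD 1, at 9.49, with the next animal at 9.64.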

How the results depend on the processing

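No member probe was called in any alternative fit, and the lowest adjusted p (limma) of a member was between 0.0580 and 0.609. Over all probes 344 were called, against 88 with normexp and percentile scaling, 856 with normexp and quantile normalisation, 66 without a filter on dim probes, 736 with probes above background on all arrays, 84 with slide as a fixed block, 677 with slide as a random block, 1206 with array weights, 612 with a variance trend and robust prior, and 25 to 325 with 1 array left out. The median of all tested probes was -0.02, and -0.17 with normexp and percentile scaling. That scaling turned TNNT1 to 0.38, TNNC2 to 0.40, TNNI2 to 0.49, TPM1 to 0.36 and MYH7 to 0.33. TNNT1, near 0, was also 0.057 with quantile normalisation and 0.057 with the percentile over probes above background on all arrays, 0.068 and 0.025 with slide as a fixed and a random block, 0.098 with array weights and 0.039 as the mean of its probes. TNNC2 was 0.030 with quantile normalisation and 0.0060 with that percentile. TNNI2 was 0.097 with normexp and quantile normalisation, 0.099 with quantile normalisation, 0.075 with that percentile, 0.035 with array weights and 0.0024 as the mean of its probes, as MYH7 was 0.0065. Within slide 2, TNNI1 was -0.49 and TPM3 -0.41; within slide 3, TNNT1 was 0.65, CSRP3 0.88 and MYH7 0.37. The cause was not tested. With 1 array left out, differences ran from -0.21 to 0.19 for TNNT1, -0.10 to 0.55 for TNNI1, -0.21 to 0.33 for TPM3, -0.023 to 0.39 for TNNC1, -0.16 to 0.024 for TNNC2, -0.12 to 0.12 for TNNI2, -2.95 to -1.41 for CSRP3 and -0.42 to -0.0044 for MYH7, and the lowest r among slow genes from 0.66 to 0.86. The planned normexp on mean signal was not run, and saturated spots changed nothing, as there were 0. No paired analysis was possible because the replicate numbers follow accession order and the labels share none.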
